A study of Mus musculus with 26 samples.

Results

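Treg and conventional T cells (Tconv) of the draining lymph node were compared in control mice with EAE (experimental autoimmune encephalomyelitis), which serves as a model of multiple sclerosis. The comparison rests on the 3 libraries labelled Treg_dLN_Ctrl and the 3 labelled Tconv_dLN_Ctrl, 6 of the 26 in the series, chosen by those labels. Treg cells were CD4+Foxp3+ and Tconv cells CD4+Foxp3-, all from draining nodes (dLN) of C57BL/6 mice. Active EAE had been induced in these mice, and they received tamoxifen from day 7 to day 14. The EAE day given for every library is 14. Every control mouse carried Foxp3Cre-ERT2, a Cre recombinase that tamoxifen activates and that Foxp3-expressing cells make, with no floxed allele named for it. Both cell types therefore come from Cre-bearing, tamoxifen-treated animals, and mice without Cre or tamoxifen were not among the groups. Treg and Tconv libraries of 2 other settings were used for comparison. Conditional knockout mice (icKO) carry Foxp3Cre-ERT2 with Tnfrsf1bFlox/Flox, and their nodes gave 3 Treg and 3 Tconv libraries. The central nervous system (CNS) of control mice gave 3 Treg and 4 Tconv libraries.

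Regulatory T cells hold back other T cells and depend on the transcription factor Foxp3. They take up interleukin-2 through the high-affinity receptor chain CD25, make little of that cytokine themselves, and carry CTLA-4 and several receptors of the TNF family on their surface. Tconv cells of a lymph node include naive cells, which circulate through nodes under Ccr7, and helper cells of several kinds. In EAE the draining node is where T cells specific for myelin are primed before they enter the CNS.

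The 6 libraries held 12.4 to 15.2 M expected counts over 12090 to 13545 genes above 0. Rank correlations between libraries were 0.957 to 0.97 within Treg, 0.967 to 0.969 within Tconv and 0.945 to 0.958 between the cell types. Foxp3, on chromosome X from 7579676 to 7595243 (GRCm38), had 49.7, 40.6 and 59.9 CPM (counts per 1 M counts) in Treg libraries, against 0.939, 1.07 and 1.18 CPM in Tconv libraries. Since Foxp3 defined the populations, this checks the labels and is not a result. The T cell markers summed to 3920 to 4410 CPM of library total in Treg and 4760 to 4810 CPM in Tconv libraries, and all 6 markers were above 0 in every library.

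Transcripts of other cells were present at low levels. The 9 myeloid markers summed to 293, 769 and 92.3 CPM in Treg libraries, against 61.0, 96.3 and 115 CPM in Tconv libraries of library total. Lyz2, the lysozyme of macrophages, contributed 62.5 to 608 CPM in Treg and 31.4 to 70.5 CPM in Tconv libraries. Treg replicates 1 and 2 lay above every Tconv library, and Treg replicate 3 lay within their range. The 8 dendritic cell markers summed to 52.4, 35 and 16.2 CPM in Treg and 10.4, 90.9 and 114 CPM in Tconv libraries. Siglech, a marker of plasmacytoid dendritic cells, took 68.3 and 84.6 CPM of the sums in Tconv replicates 2 and 3. Ccl22, a chemokine of dendritic cells, had 37.2, 14.4 and 0 CPM in Treg libraries, against 0.741, 0 and 0.0767 CPM in Tconv libraries, and Zbtb46, a factor of conventional dendritic cells, 3.22, 1.67 and 5.15 CPM in Treg and 0.741, 0.491 and 0.153 CPM in Tconv libraries. In the test described next, Ccl22 and Zbtb46 were called higher and Siglech lower, 3 of the 7 dendritic cell markers tested, where 25.4% of all genes were called. There were 0 to 2 calls in each direction when 1 library was left out. With replicate number as a block (the same number taken as a pair) Ccl22 alone was called, and Siglech (log2 fold change -3.47, adjusted p = 0.11) and Zbtb46 (2.74, 0.066) were not. The 10 CD8 T and NK markers summed to 106 to 166 CPM in Treg and 214 to 263 CPM in Tconv libraries. The 8 B cell markers summed to 30.1, 38.2 and 27.8 CPM in Treg and 3.03, 12.8 and 12.2 CPM in Tconv libraries. Of them, Ms4a1, Pax5 and Ebf1 were at 0.772 CPM or less in every library. Cd79b, which made up most of the Treg sums, reached 24.9 to 36.6 CPM in Treg libraries, against 1.68 to 4.22 CPM in Tconv libraries, and was called higher. Fcrla was called lower, with 0 CPM in all 3 Treg libraries, against 0.876, 6.67 and 6.06 CPM in Tconv libraries. The 8 markers of endothelium and stroma summed to 99.5, 95 and 110 CPM in Treg and 169, 168 and 174 CPM in Tconv libraries. Nearly all of this was Pecam1, an adhesion molecule that T cells also express, with 97.7, 93.2 and 110 CPM in Treg and 167, 163 and 161 CPM in Tconv libraries (log2 fold change -0.74, adjusted p = 0.00065). Kdr, the other marker tested, was also called lower, with 0.658, 0 and 0 CPM in Treg and 1.62, 2.25 and 6.75 CPM in Tconv libraries, but not with the replicate block (adjusted p = 0.078) or in 5 of 6 fits that left out a library, all but the fit without Treg replicate 1. Col1a2 was at 0 in all 6 libraries. The part of such transcripts in the results was not tested.

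The cell types differed across a wide range of genes, with rises and falls almost balanced. Levels of single genes are CPM scaled by TMM, unless they are said to be of the library total. edgeR's quasi-likelihood test called 2935 of 11533 genes tested (25.4%) at a Benjamini-Hochberg adjusted p under 0.05, 1522 higher (13.2%) and 1413 lower (12.3%) in Treg libraries. The largest changes were more often rises: 271 called genes were at least 4-fold higher and 177 at least 4-fold lower, and at a 2-fold limit the counts were 784 and 441. The median log2 fold change over all genes tested was -0.02. Of the called genes, 2899 had no overlap between the 3 Treg and the 3 Tconv libraries, in a background where 43.0% of all genes tested had none. When the spread was shared over all 8 groups of the series, 1556 genes were called with 25 libraries and 235 with all 26, which include an icKO Tconv library that stood apart.

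**Figure D1:**
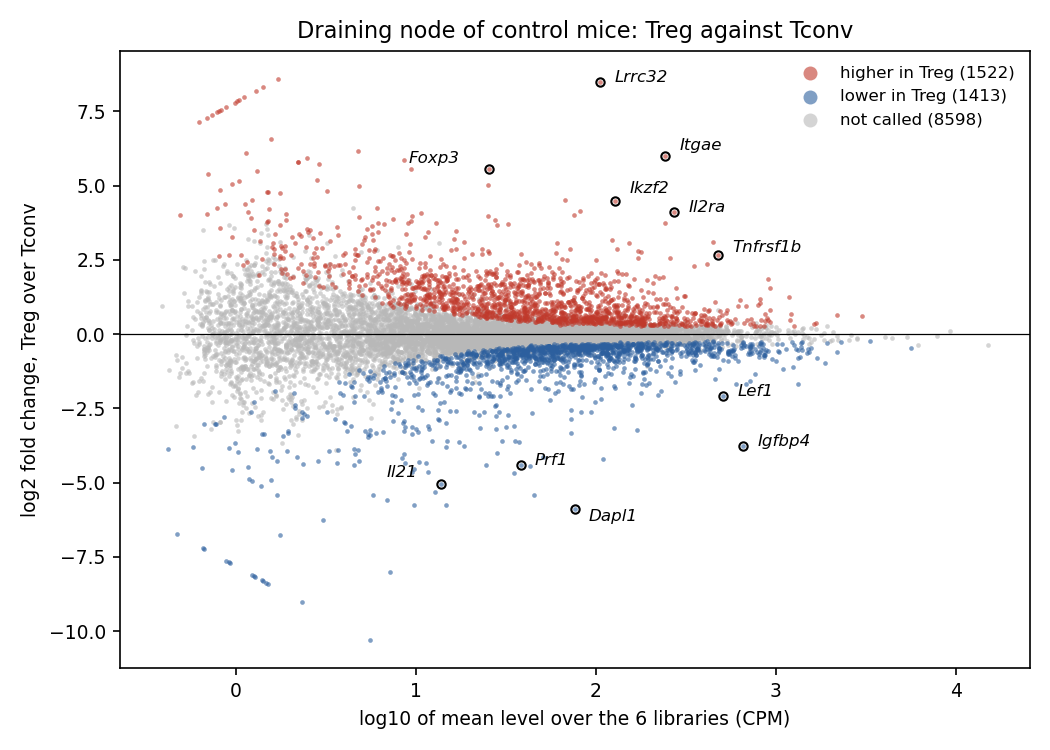
Log2 fold change of Treg over Tconv (vertical axis) against the log10 of the mean level in CPM over the 6 libraries (horizontal axis), 1 point per gene tested. Of 11533 genes 1522 were higher in Treg (red) and 1413 lower (blue). The diagonal rows of points at the left edge are genes at 0 in every library of 1 cell type, whose fitted fold change depends on the prior count.

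Among genes with a mean of at least 10 CPM in either cell type, the largest rise belonged to Lrrc32, which encodes GARP, the protein that holds latent TGF-beta on the Treg surface. It had 181, 236 and 212 CPM in Treg libraries, against 0, 1.72 and 0 CPM in Tconv libraries, 8.48 ± 0.58 higher on the log2 scale (adjusted p = 1.5e-05). Tconv replicate 2 alone held its counts in that group, and without it the fitted value was 14.52, which depends on the prior count. Itgae, the integrin chain CD103, had 414, 455 and 559 CPM in Treg libraries, against 5.70, 9.16 and 7.42 CPM in Tconv libraries (log2 fold change 6.00 ± 0.19, adjusted p = 2.0e-07). The zinc finger factors Ikzf2 (Helios) and Ikzf4 (Eos), both known from Treg cells, rose together. Ikzf2 had 229, 239.9 and 262 CPM in Treg libraries, against 10.2, 10.2 and 12.7 CPM in Tconv libraries (4.47 ± 0.13 on the log2 scale). Ikzf4 averaged 154 ± 6.91 CPM in Treg and 8.81 ± 2.85 CPM in Tconv libraries (SD, n = 3 each). Il2ra, which encodes CD25, had 559.7, 457 and 520.1 CPM in Treg libraries, against 41.5, 25.1 and 22.2 CPM in Tconv libraries (4.11 ± 0.22 on the log2 scale). The groups did not overlap in these genes, a property that was part of their choice.

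Several of the other largest rises are not on the Treg lists used below, though Dgat2 is on the list of effector Treg genes. Ttn, which encodes the giant muscle protein titin, had 135, 135 and 119 CPM in Treg libraries, against 5.03, 6.37 and 5.76 CPM in Tconv libraries (log2 fold change 4.50 ± 0.15). Its level per transcript length stayed low, at 2.55 ± 0.19 TPM in Treg and 0.10 ± 0.01 TPM in Tconv libraries (SD, n = 3 each). Dgat2, an enzyme of triglyceride synthesis, had 34.4, 17.5 and 94.3 CPM in Treg libraries, against 0.805, 3.08 and 0.552 CPM in Tconv libraries (5.02 ± 0.75). Myo1e, an unconventional myosin, averaged 143 ± 16 CPM in Treg and 8.89 ± 1.76 CPM in Tconv libraries. Others were Rln3 (a relaxin peptide), Colq (the collagen tail of acetylcholinesterase), Pon3 (a paraoxonase), Slc7a10 (an amino acid transporter), Ica1 and Mid2. Their log2 fold changes were 3.89 to 5.56, with means of 11.6 to 47.5 CPM in Treg libraries. Foxp3, which defined the populations and is not a result, completed the 15.

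Among the falls, Dapl1, a gene of naive T cells, had 2.21, 2.54 and 2.86 CPM in Treg libraries, against 97.0, 138 and 214 CPM in Tconv libraries (log2 fold change -5.89 ± 0.32, adjusted p = 3.4e-06). Lrrc75b was at 0 in all 3 Treg libraries, against 10.8, 16.7 and 6.00 CPM in Tconv libraries, at least 51.6-fold lower with 3 counts per library as the floor. Il21, a helper cytokine that acts on B cells, had 0.651, 1.17 and 0.556 CPM in Treg libraries, against 32.1, 24.7 and 23.6 CPM in Tconv libraries (-5.06 ± 0.34). Pdlim4, a PDZ and LIM domain protein of the actin cytoskeleton, averaged 1.99 ± 1.72 CPM in Treg and 88.4 ± 21.9 CPM in Tconv libraries. Slc16a5, a monocarboxylate transporter, averaged 2.61 ± 0.483 CPM in Treg and 67.2 ± 11.1 CPM in Tconv libraries, and Hid1 3.75 ± 1.97 CPM in Treg and 82.5 ± 8.21 CPM in Tconv libraries.

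The rest of the 15 largest falls had small counts in Treg libraries. Olfml3, Ampd1 (AMP deaminase of muscle), Ggt5 (a gamma-glutamyltransferase) and Ifitm1 (an interferon-induced membrane protein) averaged 0.255 to 0.777 CPM in Treg and 11.3 to 28.8 CPM in Tconv libraries. Klk1 (a kallikrein) and Rnase6 (a ribonuclease of myeloid cells) varied widely among Tconv libraries, with 2.75, 12.7 and 27.3 CPM for Klk1 and 4.16, 27.4 and 36.0 CPM for Rnase6. Rnase6 was highest in the 2 Tconv libraries that also held the most Siglech, and the part of dendritic cell transcripts in that difference was not tested. Klrd1, an NK cell receptor chain, had 1.43, 0.687 and 0 CPM in Treg libraries, against 13.9, 18.5 and 22.3 CPM in Tconv libraries. Dntt, the template-free DNA polymerase of lymphocyte precursors, had 0.781, 0 and 0 CPM in Treg libraries, against 6.24, 12.9 and 21.5 CPM in Tconv libraries. Its fitted log2 fold change was -5.58 and was -10.53 without Treg replicate 1, the only Treg library with counts of it. Lypd6b likewise gave -5.75 with all libraries and -8.75 without Treg replicate 2.

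**Figure D2:**
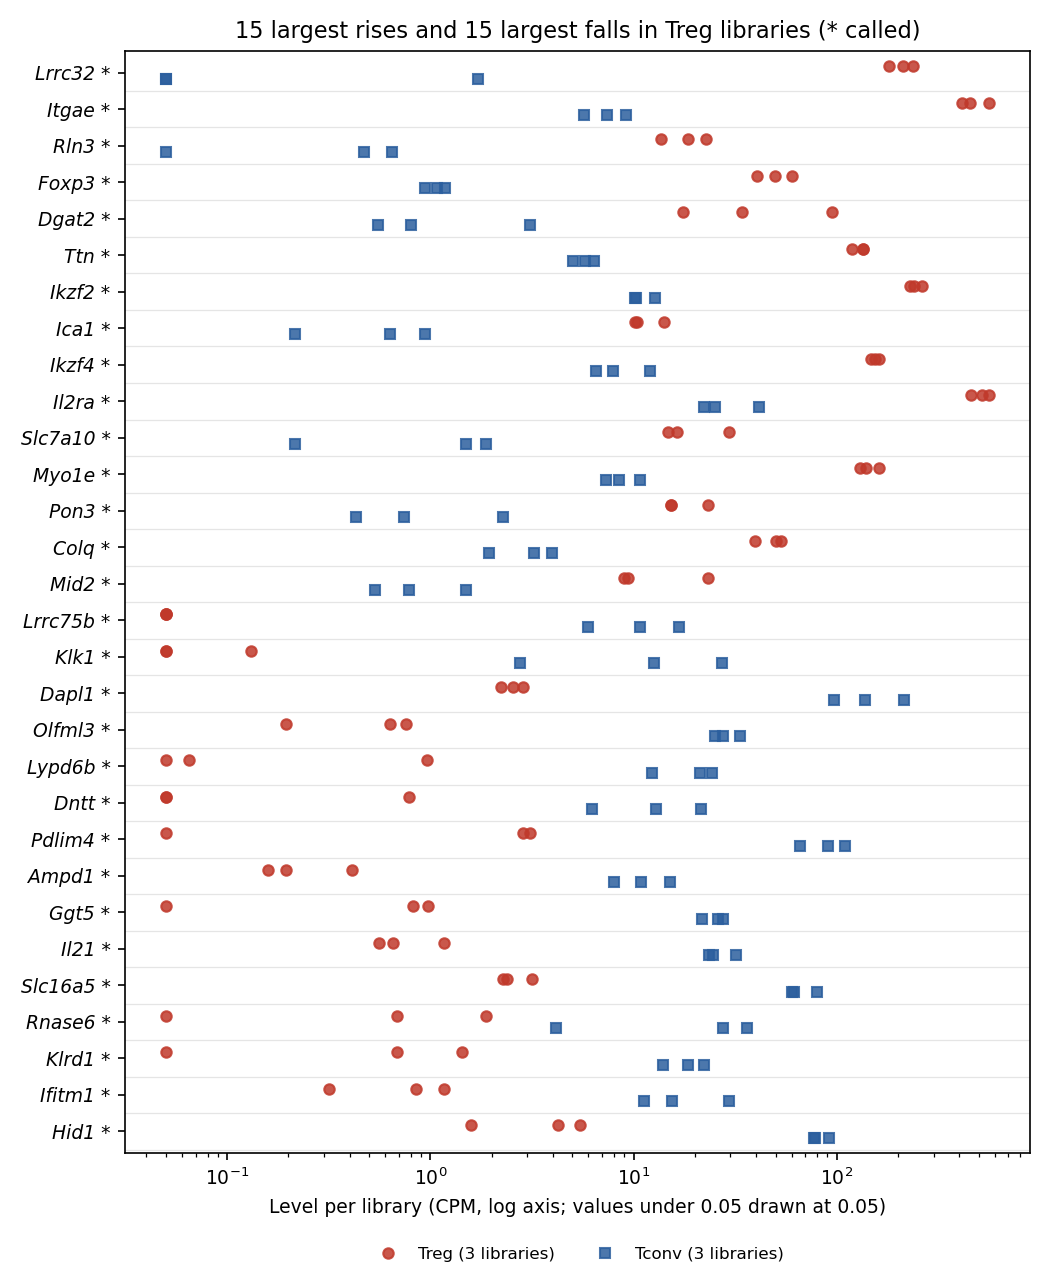
Level of the 15 largest rises and 15 largest falls in each library, in CPM on a log axis, with Treg libraries as red circles above Tconv libraries as blue squares and values under 0.05 CPM drawn at 0.05. No gene of the 30 has overlapping groups, a property that was part of their choice.

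Genes known to mark Treg cells were high almost throughout. Of 24 genes of the core list, 22 rose and none fell, with a median log2 fold change of 2.79. Over all genes tested 13.2% rose and 12.3% fell. The list holds Foxp3, which defined the populations, so its rise is not a result, here or in the other settings. Ctla4, the inhibitory receptor that binds CD80 and CD86, had 441, 404 and 500.0 CPM in Treg libraries, against 39.0, 27.4 and 34.6 CPM in Tconv libraries (3.74 ± 0.15, adjusted p = 6.1e-07). Nrp1, a semaphorin coreceptor linked to thymus-derived Treg cells, had 405, 479 and 439 CPM in Treg libraries, against 72.0, 78.1 and 76.4 CPM in Tconv libraries (2.55 ± 0.10). Capg, an actin-capping protein, averaged 699 ± 50.3 CPM in Treg and 135 ± 18.1 CPM in Tconv libraries. The 2 members that did not pass were Gpr15, a gut-homing receptor at 1.47 ± 0.49 (log2, adjusted p = 0.052), and Plagl1 with 2.77 ± 0.94 (adjusted p = 0.056). With the replicate block both were called (Gpr15 1.39, adjusted p = 0.011, and Plagl1 3.22, 0.037), and all 24 members rose.

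Genes of effector Treg cells, the activated state that leaves lymphoid tissue, were higher too: 17 of 20 rose and none fell (median log2 fold change 1.39). Over all genes tested 13.2% rose and 12.3% fell. Il1rl1, the receptor of IL-33, had 53.0, 62.7 and 66.1 CPM in Treg libraries, against 5.30, 5.08 and 3.63 CPM in Tconv libraries (3.69 ± 0.20, adjusted p = 3.0e-06). Prdm1, which encodes the repressor Blimp-1, had 84.2, 85.2 and 73.8 CPM in Treg libraries, against 23.9, 15 and 9.78 CPM in Tconv libraries (2.32 ± 0.27). Icos, a costimulatory receptor, averaged 1388 ± 163 CPM in Treg and 471 ± 35.4 CPM in Tconv libraries, and Gata3, also the factor of Th2 cells, 262 ± 17.8 CPM in Treg and 139 ± 3.42 CPM in Tconv libraries.

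Among 18 suppressor molecules tested, 14 rose and 1 fell (median log2 fold change 2.49), where 13.2% of all genes rose and 12.3% fell. Ctla4, Lrrc32, Nt5e and Entpd1 are also on the core list, and Tigit, Itgb8 and Lag3 on the effector list. The counts of these lists are therefore not independent. Ebi3, a subunit of interleukin-27 and interleukin-35, had 129.9, 120.4 and 129.9 CPM in Treg libraries, against 18.9, 15.2 and 18.3 CPM in Tconv libraries (2.86 ± 0.13, adjusted p = 1.4e-06). Il1r2, the decoy receptor for interleukin-1, had 285, 334 and 319 CPM in Treg libraries, against 56.3, 38.4 and 42.3 CPM in Tconv libraries (2.77 ± 0.15). Penk, the precursor of enkephalin peptides, averaged 231 ± 48.1 CPM in Treg and 31.5 ± 1.26 CPM in Tconv libraries. The cytotoxic pair split. Gzmb, a granule protease, had 147, 74.7 and 131 CPM in Treg libraries, against 34.9, 6.58 and 21.1 CPM in Tconv libraries (2.49 ± 0.48, adjusted p = 0.0047). Prf1, the pore protein through which granzymes enter cells, was the 1 member lower in Treg libraries, with 4.69, 3.57 and 1.98 CPM, against 62.8, 76.4 and 79.5 CPM in Tconv libraries (-4.40 ± 0.27). Of 10 markers of CD8 T and NK cells, which also make Prf1, 6 fell, where 12.3% of all genes fell. With 1 library left out 2 to 5 fell (2 without Tconv replicate 2 or 3, 4 without Treg or Tconv replicate 1). Those 6 were Ncr1, Klrb1c, Nkg7, Klrd1, Klrk1 and Eomes. The CD8 genes Cd8a (adjusted p = 0.56) and Cd8b1 (0.60) were not called, nor were Gzma and Tyrobp. Cd8b1 had 27.2 to 32.8 CPM of library total in Treg and 23.4 to 43.7 CPM in Tconv libraries. Their summed level was 106 to 166 CPM in Treg and 214 to 263 CPM in Tconv libraries. Ncr1, an NK receptor, was at 0 in all Treg libraries and at 1.69 to 4.11 CPM of library total in Tconv libraries. The part of such cells in the Prf1 difference was not tested. Il10, the cytokine most often tied to Treg function, had 2.47, 1.72 and 3.65 CPM in Treg libraries, against 0.738, 0 and 0.631 CPM in Tconv libraries, and did not pass (adjusted p = 0.089).

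Some genes of this kind are also made by myeloid cells. Cd80 and Cd86, the ligands of CTLA-4, and the inhibitory receptor Havcr2 (TIM-3) were higher in Treg libraries. Cd86 had 30.5, 38.1 and 21.8 CPM in Treg libraries, against 10.2, 10.3 and 11 CPM in Tconv libraries (1.52 ± 0.23, adjusted p = 0.0013). Cd80 had 5.66, 6.60 and 6.27 CPM in Treg libraries, against 0.402, 0.215 and 0 CPM in Tconv libraries. In Treg replicate 3 the level of each of the 3 was above that of every Tconv library. Havcr2 had 23.2 CPM there, against 5.50 to 7.08 CPM in Tconv libraries. The myeloid sum of that library, 92.3 CPM, lay within the Tconv range of 61.0 to 115 CPM. Its dendritic cell sum of 16.2 CPM lay within the Tconv range of 10.4 to 114 CPM. Of single dendritic cell markers, Zbtb46 (5.15 CPM of library total) and Xcr1 (5.07 CPM) were above every Tconv library there. Ccl22 and Itgax were at 0 CPM. Lyz2 itself, with 225, 599 and 61.7 CPM in Treg and 31.2, 45.9 and 72.5 CPM in Tconv libraries, overlapped between the groups. It was called (log2 fold change 2.57 ± 0.66, adjusted p = 0.019), but not without Treg replicate 2 (1.53, adjusted p = 0.054), Tconv replicate 1 (2.33, 0.064) or Tconv replicate 2 (2.52, 0.079), nor with the replicate block (2.20, 0.062). The part of myeloid or dendritic cell transcripts in the differences of Cd80, Cd86 and Havcr2 was not tested.

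**Figure D3:**
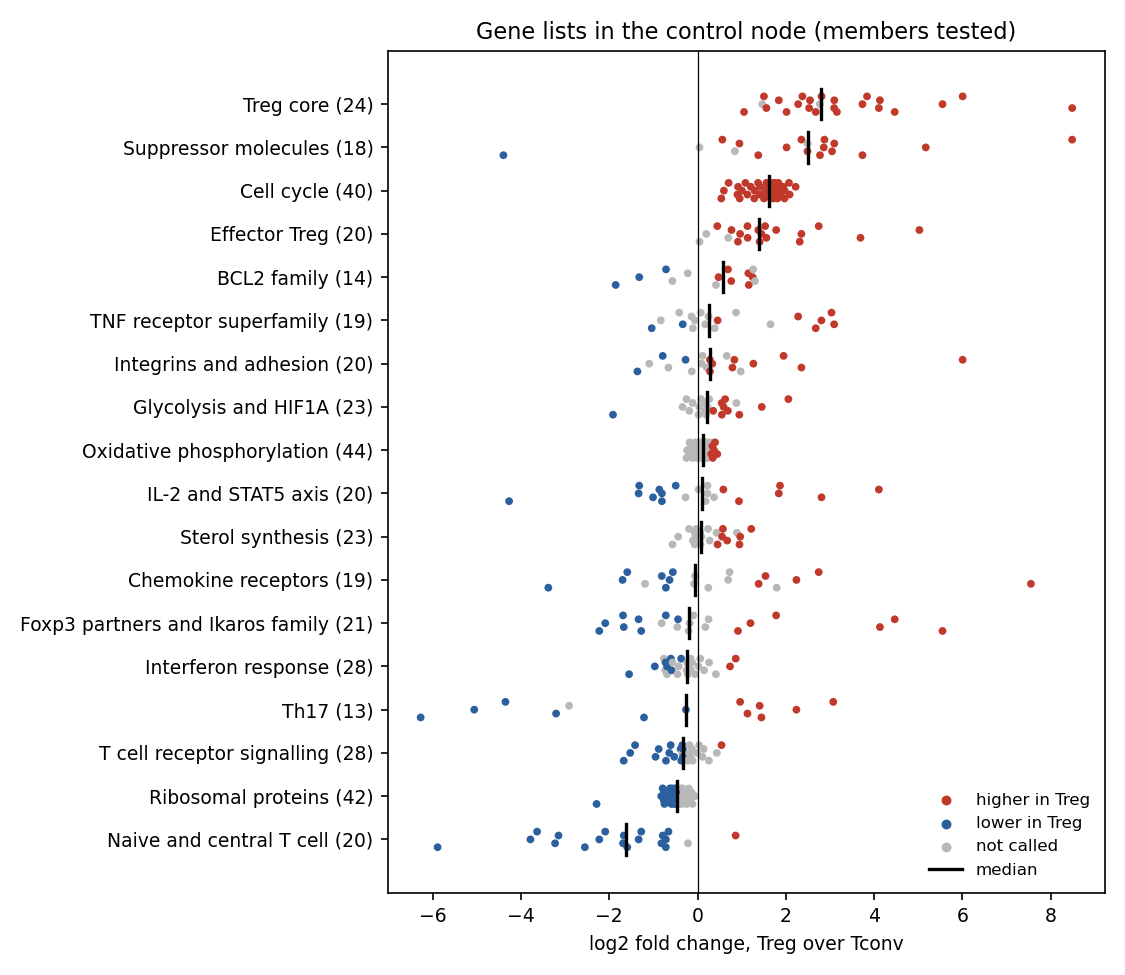
Log2 fold change of Treg over Tconv for the tested members of 18 gene lists (number tested in parentheses), 1 point per gene, red where higher, blue where lower and grey where not called, with a black bar at the list's median. The core Treg list centres on 2.79, cell cycle genes on 1.62 with all 40 called, and naive and central genes on -1.63.

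The TNF receptor superfamily divides into receptors with a death domain, such as Tnfrsf1a and Fas, and costimulatory receptors that recruit TRAF proteins, such as Tnfrsf4 (OX40), Tnfrsf9 (4-1BB), Tnfrsf18 (GITR) and Tnfrsf1b (TNFR2). Of 19 members tested, 6 rose and 2 fell in Treg libraries (median log2 fold change 0.25). Over all genes tested 13.2% rose and 12.3% fell. Tnfrsf4, Tnfrsf18 and Tnfrsf1b are also on the core Treg list. The 5 costimulatory receptors described next accounted for the large rises. Tnfrsf4 had 772, 754 and 875 CPM in Treg libraries, against 92.9, 87.0 and 101 CPM in Tconv libraries (3.09 ± 0.10, adjusted p = 2.0e-07). Tnfrsf1b had 827, 767 and 889.8 CPM in Treg libraries, against 131, 138 and 119 CPM in Tconv libraries (2.68 ± 0.10, adjusted p = 3.6e-07). Each group kept within a narrow range, and Tnfrsf1b was the sixth gene of all 11533 by p.

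Tnfrsf9 had 306, 282 and 312 CPM in Treg libraries, against 44.2, 43.9 and 40.6 CPM in Tconv libraries (2.81 ± 0.10). Tnfrsf18 had 526, 523 and 703 CPM in Treg libraries, against 120.2, 103 and 138 CPM in Tconv libraries (2.28 ± 0.15). Tnfrsf8 (CD30) rose at a low level, with 16.5 ± 2.12 CPM in Treg and 2.0 ± 0.378 CPM in Tconv libraries (3.03 ± 0.30). These 5 genes and 2 others of the 19 tested, neither called, lie on chromosome 4 in the RefSeq annotation of GRCm38.p6. Tnfrsf4 (156013595 to 156016613) and Tnfrsf18 (156026322 to 156028894) are neighbours there, as are Tnfrsf1b (145212368 to 145246870) and Tnfrsf8 (145267132 to 145315164). Tnfrsf25, the death-domain receptor DR3 on the same chromosome, had 81.9, 84.9 and 77.2 CPM in Treg and 77.9, 68.0 and 70.4 CPM in Tconv libraries, and the groups overlapped.

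Per length, Tnfrsf4 and Tnfrsf18 were the most abundant of the family in Treg libraries, at 1323 ± 108 and 1106 ± 193 TPM, followed by Tnfrsf1b at 285 ± 22.5 TPM and Tnfrsf9 at 257 ± 15.7 TPM (SD, n = 3). The order of the first pair and of the second pair lies within their spread. In Tconv libraries Tnfrsf18 stood at 216 ± 26.1, Tnfrsf4 at 147 ± 8.68, Tnfrsf1b at 42.3 ± 4.79 and Tnfrsf9 at 34.9 ± 3.17 TPM. Tnfrsf1a (TNFR1), the other receptor for TNF, was lower in Treg libraries. Tnfrsf1a had 32.9, 39.2 and 37.5 CPM in Treg libraries, against 78.4, 80.7 and 65.6 CPM in Tconv libraries (log2 fold change -1.04 ± 0.13, adjusted p = 0.00051). The remaining calls, Fas (0.46) and Cd27 (-0.33), were small, and each was lost on leaving out single libraries. Fas gave 0.30 (adjusted p = 0.14) without Treg replicate 3 and 0.42 to 0.53 (adjusted p = 0.065 to 0.13) in the 4 other such fits that lost it, all but the fit without Treg replicate 1. Cd27 gave -0.29 (adjusted p = 0.10) without Treg replicate 1 and -0.33 to -0.32 (0.052 to 0.058) without Treg replicate 3, Tconv replicate 1 or Tconv replicate 3.

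Of 13 ligands of the family tested, 2 rose and 3 fell (median log2 fold change 0.12), where 13.2% of all genes rose and 12.3% fell. The rises numbered 5 without Tconv replicate 1, 4 without Treg replicate 3 and 2 or 3 otherwise. Cd40lg, the helper signal to B cells and dendritic cells, had 40.6, 52.3 and 60.5 CPM in Treg libraries, against 140.3, 161 and 139 CPM in Tconv libraries (-1.52 ± 0.15, adjusted p = 0.00013). Tnfsf8, the ligand of CD30, averaged 69.4 ± 10.1 CPM in Treg and 133 ± 10.7 CPM in Tconv libraries (-0.94 ± 0.13), the opposite of its receptor. Tnfsf10 (TRAIL) averaged 59.7 ± 12.9 CPM in Treg and 24.7 ± 3.39 CPM in Tconv libraries (1.27 ± 0.18). Tnf itself had 29.6, 28.7 and 26.8 CPM in Treg and 28.2, 27.9 and 22.2 CPM in Tconv libraries. The groups overlapped, and the log2 fold change of 0.12 ± 0.16 did not pass.

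**Figure D4:**
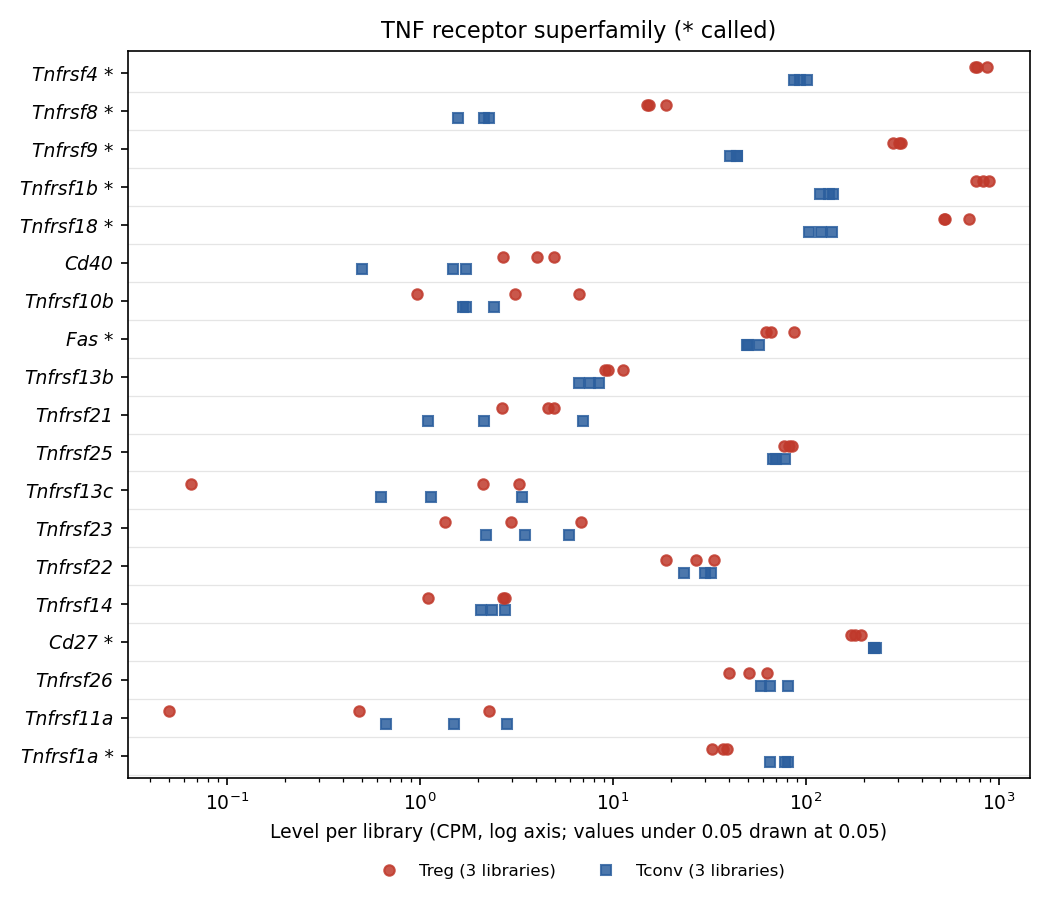
Level of the 19 tested TNF receptor genes in each library, in CPM on a log axis, ordered by fold change, with Treg libraries as red circles above Tconv libraries as blue squares and values under 0.05 CPM drawn at 0.05. Tnfrsf4, Tnfrsf8, Tnfrsf9, Tnfrsf1b and Tnfrsf18 are far to the right in Treg libraries, and Tnfrsf1a is to the left.

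On the interleukin-2 axis, Il2ra, Il2rb, Cish and Socs2 rose in Treg libraries, while the cytokine, the interleukin-7 receptor and Socs3 fell. Of 20 genes tested, 6 rose and 8 fell (median log2 fold change 0.11), where 13.2% of all genes rose and 12.3% fell. Il2ra, Il2rb and Socs2 are also on the core Treg list. Il2rb, the signalling chain shared with interleukin-15, had 1449.6, 1414 and 1358 CPM in Treg libraries, against 473, 345 and 360.3 CPM in Tconv libraries (1.84 ± 0.12). Of the inhibitors that STAT5 induces, Cish gave 1.87 ± 0.12 and Socs2 2.81 ± 0.21. Of other members of that family of cytokine signalling inhibitors, Socs3 gave -1.01 ± 0.16 (adjusted p = 0.0020), and Socs1 gave 0.22 ± 0.21 (adjusted p = 0.49) and was called only without Tconv replicate 1 (0.58, adjusted p = 0.0095). Il2 had 0.260, 0.756 and 0.397 CPM in Treg libraries, against 9.99, 8.23 and 9.47 CPM in Tconv libraries (-4.27 ± 0.50). Il7r, which marks naive and memory cells, had 446, 467 and 400.4 CPM in Treg libraries, against 948, 1157 and 1203 CPM in Tconv libraries (-1.33 ± 0.11). Jak1, a kinase under both receptors, gave -0.81 ± 0.08 and Stat5a 0.59 ± 0.10. Bcl2, a survival gene downstream of interleukin-7, averaged 145 ± 32.9 CPM in Treg and 361 ± 63.0 CPM in Tconv libraries.

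The naive and central T cell list was low in Treg libraries. Of 20 tested, 18 fell and 1 rose (median log2 fold change -1.63), where 12.3% of all genes fell. In each of the 6 fits that left out a library 18 fell. The factors of T cell quiescence moved together: Tcf7 had 635, 699 and 561 CPM in Treg libraries, against 1907, 2083 and 2039 CPM in Tconv libraries (-1.67 ± 0.09, adjusted p = 4.3e-06). Lef1 averaged 194 ± 41.2 CPM in Treg and 825 ± 85.9 CPM in Tconv libraries (-2.09 ± 0.15), and Bach2, a repressor of effector genes, 19.6 ± 3.77 CPM in Treg and 91.4 ± 8.02 CPM in Tconv libraries (-2.22 ± 0.16). Igfbp4, a secreted binding protein of insulin-like growth factors, had 99.5, 104 and 62.6 CPM in Treg libraries, against 1425, 1025 and 1220.3 CPM in Tconv libraries (-3.78 ± 0.20). Of the homing and egress genes, Ccr7 gave -1.59 ± 0.13, S1pr1 -0.72 ± 0.10 and the factor Klf2 -0.66 ± 0.11.

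The Ikaros family was divided. Ikzf2, Ikzf4 and Ikzf3 (Aiolos, 1.78 ± 0.12) rose, while Ikzf1 (Ikaros itself) had 167, 184 and 151 CPM in Treg libraries, against 396, 463 and 408 CPM in Tconv libraries (-1.34 ± 0.10). In the list of Foxp3 partners and Ikaros genes, 6 of 21 rose and 8 fell, where 13.2% of all genes rose and 12.3% fell. Among the 6 was Foxp3 itself, which defined the populations. Ikzf2 and Ikzf4 are also on the core Treg list, and Ikzf3 and Gata3 on the effector list. Satb1, a chromatin organiser needed early in Treg development, had 329.6, 265 and 258 CPM in Treg libraries, against 937, 966 and 842 CPM in Tconv libraries (-1.69 ± 0.11), and Foxp1 gave -1.27 ± 0.12.

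Genes of helper lineages did not move as blocks. Of 13 Th17 genes tested 6 rose and 6 fell, where 13.2% of all genes rose and 12.3% fell. Ahr, the aryl hydrocarbon receptor, had 104, 98.9 and 122 CPM in Treg libraries, against 14.4, 9.95 and 14.2 CPM in Tconv libraries (3.07 ± 0.17), and Ccr6, a chemokine receptor of Th17 and Treg cells, had 103, 96.9 and 111 CPM in Treg libraries, against 15.4, 19.6 and 30.9 CPM in Tconv libraries (2.24 ± 0.23). Il1r1, the signalling receptor of interleukin-1, had 6.38, 2.96 and 6.99 CPM in Treg libraries, against 56.8, 33.1 and 60.2 CPM in Tconv libraries (-3.20 ± 0.34), the reverse of the decoy Il1r2. Of 17 Th1 genes 2 rose, near the 13.2% of all genes that rose, and 4 fell. The falls numbered 0 to 3 when 1 library was left out. There were 0 without Tconv replicate 2, 1 without Tconv replicate 3, and 2 without Treg replicate 1 or 3 or Tconv replicate 1. Ifng was low in both groups and overlapped, with 0.911, 4.12 and 0 CPM in Treg and 11.7, 7.37 and 2.76 CPM in Tconv libraries, and Tbx21, the Th1 factor, gave -1.11 ± 0.40 (adjusted p = 0.071). With the replicate block 3 Th1 genes rose and 6 fell, Tbx21 among them (-1.19, adjusted p = 0.0044). Among 19 chemokine receptors tested, 5 rose and 7 fell, against the same shares of 13.2% and 12.3%. Ccr8 (2.74 ± 0.13) and Ccr4 (1.54 ± 0.16), receptors of skin and tissue homing, were higher, and Cxcr5, which leads cells to follicles (-0.81 ± 0.16), and Cxcr6 (-1.70 ± 0.17) were lower in Treg libraries.

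Of 28 genes of T cell receptor signalling tested, 14 fell, 1 rose and 13 were not called (median log2 fold change -0.33), where 12.3% of all genes fell, and the number that fell was 10 to 14 with any 1 library left out. Themis, a regulator of thymic selection, had 86.6, 90.4 and 84.9 CPM in Treg libraries, against 266, 214 and 217 CPM in Tconv libraries (-1.41 ± 0.11). Of the others, the adaptor Lat gave -0.71 ± 0.12, Cd4 -0.61 ± 0.09 and the kinase Lck -0.53 ± 0.09. The 1 rise was the NFAT factor Nfatc2 (0.54 ± 0.13, adjusted p = 0.013). Early activation genes were mixed, with 7 of 22 higher and 4 lower, where 13.2% of all genes rose and 12.3% fell. The phosphatases Dusp4 (3.43 ± 0.47) and Dusp1 (1.70 ± 0.17) and the receptor-induced Nr4a1 (0.81 ± 0.13) rose, while Cd69, which also holds cells in the node, had 171, 199 and 199 CPM in Treg libraries, against 320.1, 270.2 and 329 CPM in Tconv libraries (-0.69 ± 0.11).

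Every cell cycle gene on the list was higher in Treg libraries. All 40 rose, with a median log2 fold change of 1.62 and a range of 0.54 to 2.22, where 13.2% of all genes tested rose, and 38 to 40 were called with any 1 library left out. Their summed level was 8129, 6238 and 8150.0 CPM of library total in Treg libraries, against 3304, 2427 and 2970.0 CPM in Tconv libraries, so Treg replicate 2 was the lowest of its group and still above every Tconv library. Mki67, the marker of cycling cells, had 386, 199 and 428 CPM in Treg libraries, against 89.0, 75.2 and 99.6 CPM in Tconv libraries (1.94 ± 0.25, adjusted p = 0.00051). Cdk1, the mitotic kinase, had 145, 113 and 140.4 CPM in Treg libraries, against 42.5, 28.5 and 42.5 CPM in Tconv libraries (1.81 ± 0.17), and its partner Ccnb2 (cyclin B2) had 196, 158 and 191 CPM in Treg libraries, against 76.3, 43.2 and 61.4 CPM in Tconv libraries (1.59 ± 0.19). The kinesin Cenpe of the kinetochore changed most (2.22 ± 0.24) and the replication helicase subunit Mcm4 least (0.54 ± 0.12). In bulk RNA more cycling cells and more of these transcripts per cycling cell cannot be told apart. The same holds for fewer cells of a type and less RNA per cell in every list above.

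Since these 40 genes moved together, the upstream promoters of Mki67, Cdk1 and Ccnb2 are shown: the 250 bases before the start in a RefSeq promoter table for GRCm38.p6, 5′ to 3′ on the strand of the gene. Capitals mark the CCAAT box (CCAAT), the element TTTGAA (called CHR in cell cycle genes) and the E2F motif TTTCGCGC, on either strand, so that ATTGG and TTCAAA count as well. The windows are chr7:135716380-135716629 for Mki67, chr10:69352913-69353162 for Cdk1 and chr9:70421555-70421804 for Ccnb2, all on the minus strand. As printed, the Mki67 window ends inside the annotated gene, whose outer end is at 135716450, so its last bases lie within the gene. The other 2 end just outside theirs.
Mki67: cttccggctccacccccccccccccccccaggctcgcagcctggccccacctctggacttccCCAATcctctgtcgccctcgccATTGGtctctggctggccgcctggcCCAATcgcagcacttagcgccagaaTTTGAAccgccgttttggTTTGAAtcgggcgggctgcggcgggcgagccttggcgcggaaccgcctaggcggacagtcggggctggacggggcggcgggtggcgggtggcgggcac
Cdk1: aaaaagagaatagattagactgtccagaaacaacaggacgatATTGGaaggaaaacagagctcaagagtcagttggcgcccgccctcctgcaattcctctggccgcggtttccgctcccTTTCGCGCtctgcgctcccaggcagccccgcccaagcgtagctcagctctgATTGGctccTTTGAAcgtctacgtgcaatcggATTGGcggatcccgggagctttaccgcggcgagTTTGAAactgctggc
Ccnb2: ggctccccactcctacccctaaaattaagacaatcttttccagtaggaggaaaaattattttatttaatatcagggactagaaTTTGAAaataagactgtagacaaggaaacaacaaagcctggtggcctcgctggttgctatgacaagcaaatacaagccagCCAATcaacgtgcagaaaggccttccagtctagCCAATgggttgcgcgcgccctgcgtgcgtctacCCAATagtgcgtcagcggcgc
Each of the 3 held 3 CCAAT boxes. Mki67 and Cdk1 held 2 CHR elements and Ccnb2 held 1, and Cdk1 alone held the E2F motif. Of the 40 genes 33 had a window in the table, and 26 of them held a CCAAT box (78.8%), against 40.9% of the 9130 genes tested that had one. The CHR element was in 9 of 33 (27.3%, against 12.7%) and the E2F motif in 4 of 33 (12.1%, against 0.635%). The CHR element was not particular to the cell cycle list. It was in 5 of 16 core Treg genes (31.2%), 3 of 16 naive and central genes (18.8%) and 1 of 31 ribosomal protein genes (3.23%). For the forkhead motif TGTTTAC the shares were 3.37% of genes higher in Treg, 3.26% of genes lower in Treg and 2.68% of all. A match is a description of letters in these windows and not evidence that a factor binds there.

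Ribosomal protein genes were lower in Treg libraries. Of 42 tested, 27 fell and none rose (median log2 fold change -0.48), where 12.3% of all genes fell. Their summed level was 25470, 27540 and 26600 CPM of library total in Treg libraries, against 30130, 39200 and 39220 CPM in Tconv libraries, so that Tconv replicate 1 lay nearest the Treg libraries. The count of falls was 38 without that library and 16 to 20 without any other of the 6, with 16 without Tconv replicate 3, 17 without Treg replicate 1 or Tconv replicate 2 and 20 without Treg replicate 2 or 3. Rpl13 had 985, 1098 and 961 CPM in Treg libraries, against 1610.5, 1790.5 and 1773 CPM in Tconv libraries (-0.77 ± 0.08), and Rps19 averaged 1244 ± 85 CPM in Treg and 2151 ± 366 CPM in Tconv libraries (-0.79 ± 0.12). Ribosomal protein genes have many processed pseudogenes, and how reads were split between such copies is uncertain.

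Metabolic lists had small median changes. Over all genes tested 13.2% rose and 12.3% fell, for the next list and those that follow it. Of 23 genes of glycolysis and HIF1A 9 rose and 1 fell (median log2 fold change 0.23). The rises numbered 6 to 10 when 1 library was left out. Gapdh had 1589, 1429 and 1472 CPM in Treg libraries, against 941, 841 and 1007 CPM in Tconv libraries (0.69 ± 0.09), and Hk2, the inducible hexokinase, averaged 11.1 ± 2.05 CPM in Treg and 2.66 ± 1.34 CPM in Tconv libraries. Pdk1, a kinase that keeps pyruvate out of mitochondria, was the 1 fall, with 86.4, 102 and 101 CPM in Treg libraries, against 279, 399.6 and 411 CPM in Tconv libraries (-1.91 ± 0.15). Of 44 genes of oxidative phosphorylation 6 rose and none fell (median 0.13), near the 13.2% of all genes that rose, with 2 rises without Treg replicate 1, Treg replicate 2 or Tconv replicate 2, 3 without Tconv replicate 1 and 4 to 7 otherwise. Of 23 sterol genes 7 rose, 2 without Treg replicate 1, 3 without Tconv replicate 2 or 3 and 5 without any other library, Stard4 (1.22 ± 0.23), a sterol carrier, among them. In the BCL2 family 6 of 14 rose and 3 fell. Bcl2l1, which encodes the survival protein BCL-xL, averaged 107 ± 17.8 CPM in Treg and 44.8 ± 10.4 CPM in Tconv libraries, while Bcl2 and the death genes Bbc3 (-1.85 ± 0.12) and Bcl2l11 (-0.71 ± 0.15) were lower.

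The same difference was measured again in node libraries of icKO mice, which share no sample with the control comparison. Leaving out the Tconv icKO library that stood apart (7.78 M counts and 6005 genes), 3172 of 11855 genes (26.8%) were called there, 14.7% higher and 12% lower. Of the genes higher in control Treg libraries and tested in both, 1505 of 1517 (99.2%) had the same direction and 1187 were called, which is 78.2% of the control calls and 69.9% of the icKO calls in that direction. Of the lower genes, 1381 of 1404 (98.4%) had the same direction and 929 were called (66.2% of the control calls and 66.5% of the icKO calls). Called in the opposite direction were 0 of the higher and 1 of the lower genes. The share of all genes tested with the same sign was 49.1% for rises and 50.9% for falls. All 40 cell cycle genes rose there as well, with a median log2 fold change of 2.01, and all 24 core Treg genes rose. With the library that stood apart included, edgeR called 0 genes in icKO nodes, with 586 at an unadjusted p under 0.05.

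A test of the difference between genotypes, control minus icKO, called 0 of 12393 genes with edgeR, with 538 at an unadjusted p under 0.05, and 1 gene without Treg control replicate 1 or Tconv icKO replicate 2. Tnfrsf1b, the floxed gene, was 2.68 higher on the log2 scale in Treg over Tconv libraries in control nodes and 2.26 in icKO nodes, and the difference of 0.42 ± 0.12 did not pass (adjusted p = 0.91). Ttn, the gene with the smallest p in that test, was 4.50 higher in control and 1.6 in icKO nodes (difference 2.91, adjusted p = 0.32).

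In the CNS of control mice fewer genes were called. The common dispersion of the fit was 0.0513 in the node and 0.20 in the CNS, so the numbers of calls are not compared as sizes of effect. There 1009 of 11907 were called (8.47%, with 6.30% higher and 2.18% lower), or 571 with replicate number as a block, 374 without Treg replicate 2 of the CNS and 539 without Treg replicate 1 of the CNS. Of the genes higher in control node Treg libraries and tested in both tissues, 1207 of 1484 (81.3%) had the same direction in the CNS and 215 were called (14.5%, and 39.7% of the CNS rises). Of the lower genes, 1070 of 1397 (76.6%) had the same direction and 176 were called (12.6%, and 68.8% of the CNS falls). Called in the opposite direction in the CNS were 2 of the higher and 22 of the lower genes. The share of all genes tested with the same sign was 50% for either direction. Among core Treg genes 18 of 23 rose in the CNS, and the list's median log2 fold change was 2.79 in the node and 1.86 in the CNS. Of the cell cycle genes edgeR called none there, with 2 at an unadjusted p under 0.05 and a median of 0.66. The test of the difference itself, dLN minus CNS, called 0 of the 40, with 14 at an unadjusted p under 0.05 (median difference 0.91), and 1 without the 2 CNS Tconv libraries whose file names disagree with their labels. Of the ribosomal protein genes 40 of 42 fell in the CNS. Without those 2 libraries the counts in the CNS were 17 core Treg genes, 0 cell cycle genes and 23 ribosomal protein genes, with 0 cell cycle genes at an unadjusted p under 0.05.

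**Figure D5:**
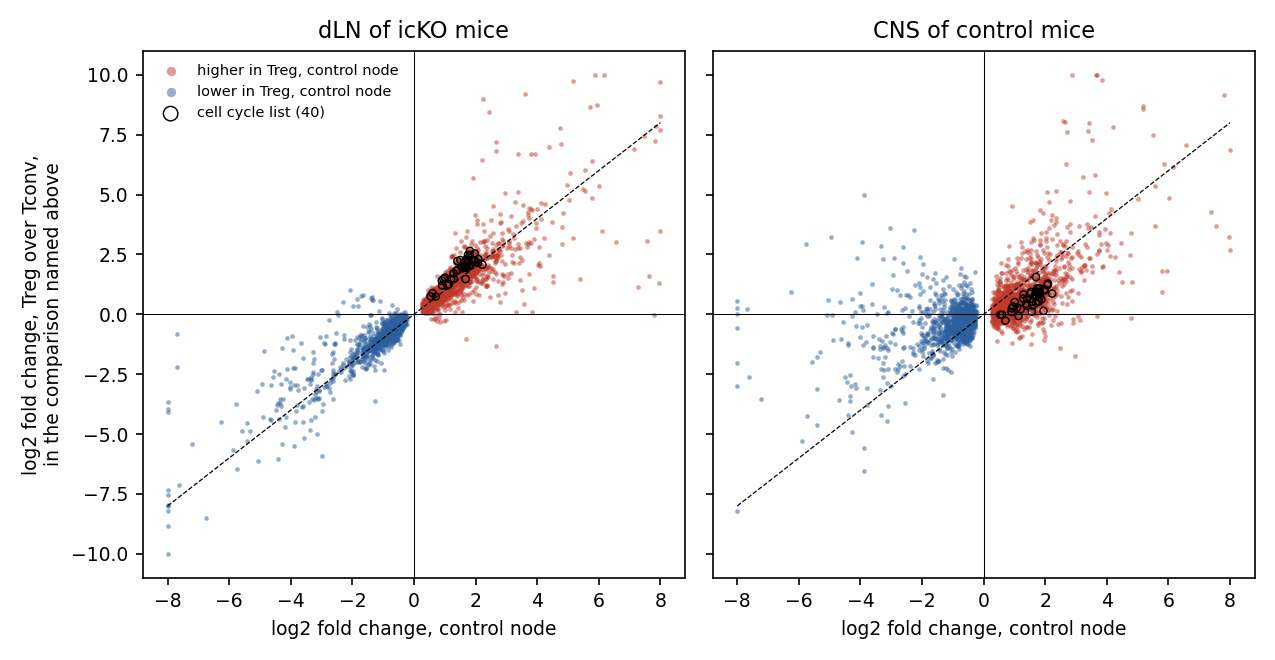
Log2 fold change of Treg over Tconv in the dLN of icKO mice (left) and the CNS of control mice (right) against that in the control node, for genes called in the control node, with values beyond 8 (horizontal) or 10 (vertical) drawn at that limit. The dashed line marks equal values, and open circles are the 40 cell cycle genes, centred on 2.01 at the left and 0.66 at the right.

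The difference between tissues, dLN minus CNS, passed for 274 of 12473 genes (2.20%), 58 more positive (0.465%) and 216 more negative (1.73%) in the node. With replicate number as a block 533 passed, and without the 2 CNS Tconv libraries just named 956. Leaving out single libraries gave 638 without Tconv CNS replicate 4, 101 to 176 without any of the Tconv dLN libraries, Treg dLN replicates 1 and 3 or Treg CNS replicates 1 and 2, and 192 to 387 otherwise. Some of the genes with the smallest p, such as Cst3 and Ctss, are abundant in macrophages and microglia. On a scale set over these 13 libraries, Cst3, an inhibitor of cysteine proteases, had 157, 164 and 152 CPM in node Treg, 114, 139 and 156 CPM in node Tconv, 1456 to 1757 CPM in CNS Treg and 234 to 259.8 CPM in CNS Tconv libraries. The CNS Treg libraries stood far above the other 3 groups. The myeloid markers summed to 92.3 to 769 CPM in node Treg and 61.0 to 115 CPM in node Tconv libraries, against 3037 to 4359 CPM in CNS Treg and 3.45 to 128 CPM in CNS Tconv libraries. Their part in the difference between tissues was not tested.

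Several T cell genes separated the cell types more in the node than in the CNS, and each of the next 4 passed with any 1 of the 13 libraries left out. Ahr gave a log2 fold change of 3.07 in the node and 0.90 in the CNS, a difference of 2.22 ± 0.28 (adjusted p = 0.0019). It had 101, 96.1 and 119 CPM in node Treg libraries, against 13.9, 9.60 and 13.6 CPM in node Tconv libraries. In the CNS it had 53.1, 64.0 and 58.3 CPM in Treg libraries, against 22.5 to 36.8 CPM in Tconv libraries. Every node Treg library was above every CNS Treg library, and every node Tconv library was below every CNS Tconv library. Nrp1 (1.22 ± 0.16) and Ikzf3 (1.30 ± 0.17) also differed. Il2rb had 1414, 1375 and 1324 CPM in node Treg, 457, 333 and 345 CPM in node Tconv, 1346 to 1839 CPM in CNS Treg and 829.8 to 1401 CPM in CNS Tconv libraries (difference 1.44 ± 0.25, adjusted p = 0.012).

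Both receptors for TNF differed between tissues in opposite directions. Tnfrsf1b had 807, 745 and 867 CPM in node Treg, 127, 133 and 114 CPM in node Tconv, 456, 715 and 672 CPM in CNS Treg and 177 to 231 CPM in CNS Tconv libraries. Its difference of 1.14 ± 0.22 passed (adjusted p = 0.021), but not without Treg dLN replicate 1 (adjusted p = 0.058), Treg dLN replicate 3 (0.064) or Tconv dLN replicate 3 (0.070). Tnfrsf1a gave -1.48 ± 0.25 (adjusted p = 0.011) and passed in all 13 such fits. In the node it was lower in Treg libraries, and in the CNS its groups did not overlap, with 56.1, 91.8 and 62.7 CPM in Treg and 43.8 to 54.1 CPM in Tconv libraries, though that difference alone did not pass (0.48, adjusted p = 0.21). Myeloid cells also express both receptors, and the myeloid sums of the CNS Treg libraries are those given above.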

How the data were processed

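RNA from sorted cells was sequenced as poly(A) libraries (SMART-Seq v4 and Nextera, which keep no strand, so a gene and an antisense partner cannot be told apart). Per the submitters' processing notes FastQC, Trimmomatic, STAR 2.5.3a, RSEM 1.2.28 and mm10 were used. The authors deposited RSEM expected counts and TPM for 24848 genes in each library. Expected counts were rounded and tested with edgeR 4.0.16 (quasi-likelihood, TMM, filterByExpr, Benjamini-Hochberg adjusted p under 0.05) in R 4.3.3 on the 6 libraries compared, and log2 fold changes are given ± SE. DESeq2 1.42.0 and limma 3.58.1 were alternatives. The deposited TPM values were used to compare genes per length. The scripts were tested on simulated data. The 15 largest rises and falls were taken among called genes with non-overlapping groups and a mean of at least 10 CPM, leaving out Gm, Rik and receptor segment names. From each list up to 6 members with the smallest p were to be named, and members named beyond these were chosen for their role after their values were seen. The members and lists were chosen with earlier results of these data known. The labels number the mice within groups and do not say that a number marks 1 animal, so p-values measure the spread between these libraries. Deviations of same-numbered Treg and Tconv libraries correlated at 0.168, 0.254 and 0.107 over 8571 genes of at least 10 CPM, against -0.164 to 0.020 for other pairs, and at 0.0693, 0.183 and 0.0468 over all genes, where the highest other pair reached 0.0694. By the first measure the numbers count as pairs. Values printed are from the fit without that block, as designed. The block fit, which called 3075 genes, is given where it changed the call of a named gene that was checked singly. Some list counts also changed with it. It gave 13 rises and 1 fall of suppressor molecules. TNF receptors gave 6 rises and 3 falls, TNF family ligands 3 and 3, and the interleukin-2 axis 7 and 8. Chemokine receptors gave 6 and 6, early activation genes 7 and 5 and glycolysis 10 and 2. Oxidative phosphorylation gave 7 and 0, sterol genes 6 and 0 and ribosomal proteins 0 and 30. Some genes that the naming rule selects are not reported here.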

Additional observations from a re-analysis of the deposited data

Results flagged for a closer look

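The difference between Treg and Tconv libraries was itself different between the node and the CNS for the genes given here, by edgeR's test of that difference (log2, dLN minus CNS, 13 libraries). Below 0, meaning a difference more negative in the node, were Cst3 (-2.49), Olfml3 (-8.67), Gpr141 (-10.13), Ctss (-2.67), Fcgrt (-4.06), Rnf130 (-3.26), Naaa (-3.82), Slpi (-3.20) and Tnfrsf1a (-1.48). The fitted value of Gpr141 depends on the prior count, since 3 of 4 CNS Tconv libraries were at 0. Above 0 were Ahnak (2.19), Ahr (2.22), Ikzf3 (1.30), Nrp1 (1.22), Il2rb (1.44) and Tnfrsf1b (1.14).

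Among the 4 CNS Tconv libraries of control mice, 1 library stood apart for Tnfrsf1a (gap over range 0.839). Chance gives such a gap in about 1 of 20 groups, and 15 groups were looked at. For Gpr141 the ratio was 1 by construction, since 3 libraries were at 0 and the other held few counts, and the chance rate does not apply to it.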

How the results depend on the processing

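The number of genes called in the control node was 2910 with DESeq2 size factors, 2925 with no filter, 3075 with the replicate block, 3443 with DESeq2's Wald test, 3218 with limma, 2726 with a filter at 10 CPM in 3 libraries and 1970 to 2515 with 1 library left out. In a model of 8 groups it was 235 with 26 libraries and 1556 with 25. The tissue difference gave 533 calls with the replicate block, 956 without the 2 CNS Tconv libraries whose file names disagree with their labels and 101 to 638 with 1 library left out. The genotype difference gave 1 call with no filter, 0 with the replicate block, 0 with all 12 libraries and 0 to 1 with 1 left out. In icKO nodes there were 0 calls with all 6 libraries, 3226 with the block and 2233 to 2702 with 1 left out. Leaving out Tconv icKO replicate 1 (2239) or 2 (2698) leaves 1 Tconv library, whose spread is then assumed to be that of the Treg libraries. In the CNS there were 571 with the block, 1017 without the 2 libraries named and 374 to 1185 with 1 left out. The cause of these shifts was not tested. With the replicate block Gpr15, Plagl1 and Tbx21 gained a call in the control node and Lyz2, Siglech, Kdr and Zbtb46 lost it. No other call changed among the named genes checked singly. Some named genes, such as Itgb8 and Tigit, were not checked singly. The number of suppressor molecules that rose was 14 without the block and 13 with it. The fitted fold changes of genes at 0 in libraries of 1 cell type, such as Fcrla, depend on the prior count.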
